A study of Mus musculus with 6 samples.

Results

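The 10 genes described here encode the TOR kinase complexes and the proteins that switch them on or off. They are *Mtor*, *Mlst8*, *Rptor*, *Rictor*, *Tsc1*, *Tsc2*, *Rheb*, *Flcn*, *Fnip1*, and *Fnip2*, chosen by gene symbol among the 56923 genes listed. All 10 passed the filter on low counts that left 17212 genes for testing. mRNA-Seq was performed on left ventricles (LVs) of *Lztr1* R409C/+ mice and their WT controls, 12 weeks old and, per the study's methods, male, with 3 mice and 3 libraries per genotype. *Lztr1* encodes a substrate adaptor of a CUL3 ubiquitin ligase that acts on RAS-family GTPases, and R409C is a single-residue change knocked into the endogenous gene by CRISPR/Cas9 as a model of autosomal-dominant Noonan syndrome. The mutant mice carried it in 1 copy in every cell, the WT mice had no mutant allele, the line had been backcrossed to C57BL/6J, and the labels give no drug treatment for either group. The question put to these genes was whether their mRNA levels differed between the genotypes.

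TOR is a serine/threonine kinase that couples growth factors, amino acids, and energy supply to protein synthesis and cell size. It works in a pair of complexes that share the kinase MTOR and the subunit MLST8. RPTOR defines TOR complex 1 (TORC1), which drives translation and restrains autophagy, and RICTOR defines TOR complex 2 (TORC2), which phosphorylates AKT. TSC1 and TSC2 form an inhibitor that keeps the GTPase RHEB inactive, and active RHEB at the lysosome stimulates TORC1. Folliculin (FLCN), bound to FNIP1 or FNIP2, acts on the Rag GTPases that bring TORC1 to the lysosome and is needed for TORC1 to phosphorylate the transcription factors TFEB and TFE3. In the heart, TORC1 is known for its role in growth of cardiomyocytes. Most of this regulation acts on proteins and their phosphorylation, which mRNA levels do not report.

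The libraries held 66130887 to 72641124 counts, and the 10 genes had between 399 counts (*Mlst8*) and 10034 counts (*Tsc2*) per mouse. Values are given in CPM, counts scaled to a common library total after TMM scaling, which adjusts for library composition. A detection limit of 3 counts lay at 0.0317 to 0.0541 CPM by counting error alone. The share of mitochondrially encoded genes was lowest in WT replicate 3 at 13.8%, highest in *Lztr1* R409C/+ replicate 1 at 45.4%, and between 29.7% and 37.3% otherwise. The summed level of 8 cardiomyocyte markers was 51665 to 54798 CPM in WT and 36346 to 50290 CPM in the mutant mice, without overlap and with none of the 8 markers at 0, but the sums overlapped with library size only or upper quartile normalization. Of these 8 markers, 6 had a log2 fold change below 0 and 2 above, and 0 passed at an unadjusted p under 0.05 or at the false discovery rate of 0.05 by edgeR. The sum of 8 macrophage markers was 99.6 to 101.3 CPM in WT and 184.7 to 206.4 CPM in the mutant mice, again without overlap and with 8 of 8 markers higher, 2 of them past the false discovery rate of 0.05 by edgeR, and the 6 lymphocyte markers summed to 0.728 to 1.17 and 2.21 to 2.73 CPM, with 5 of 5 tested above 0. The sums of the blood, fibroblast, endothelial, smooth muscle, and atrial markers overlapped between the groups, but single markers differed at an unadjusted p under 0.05 by edgeR. All 5 blood markers had log2 fold changes above 0, from 0.90 to 1.08, and 3 of them were at that level. So were 3 of 8 fibroblast markers (*Lum*, *Postn*, and *Tcf21*) and 1 of 8 endothelial markers (*Emcn*), all higher in mutant mice, whereas 2 of 8 smooth muscle markers were lower, *Myh11* with -0.71 and *Tagln* with -0.65. None of these passed the false discovery rate. The 4 adipocyte markers summed to 0.106 to 0.249 CPM in WT and 0 to 0.0979 CPM in mutant mice, without overlap, near the detection limit, and with *Lep* at 0 in all 6 mice. In bulk tissue, fewer cells of a type and less RNA per cell cannot be told apart, and the part of these marker differences in the values below was not tested. *Lztr1* itself was measured at 24.2, 24.2 and 22.2 CPM in WT and 23.9, 27.9 and 25.3 CPM in the mutant mice, in replicate order, and since the mutation changes a single residue, this level does not check the labels.

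All 10 genes had a lower mean in *Lztr1* R409C/+ than in WT mice, but none passed the test, and the sign turned for *Mlst8* in 3, *Rictor* in 2, and *Rheb* in 2 of 17 alternative fits. Log2 fold changes, given throughout as mutant over WT, ranged from -0.05 for *Rictor* to -0.62 for *Fnip2*, with a median of -0.25 against 0.012 over all 17212 genes tested. Among all genes tested, 48.6% had a log2 fold change below 0. In the fit over all 6 mice, the 3 genes of the folliculin complex, *Fnip2*, *Flcn*, and *Fnip1*, had the lowest of the 10 values. *Mtor* or *Tsc2* was below *Fnip1* without WT replicate 3 and without mutant replicate 3. The same held without WT replicate 3 and mutant replicate 1 together. After Benjamini-Hochberg adjustment at 0.05, 0 of the 10 genes passed the quasi-likelihood test of edgeR, its exact test, or the Wald test of DESeq2. At this threshold the quasi-likelihood test called 0.00581% of all genes lower and 0.0349% higher, 0.0407% in either direction. The exact test called 0.0755% lower and 0.72% higher, and DESeq2 called 0.0813% lower and 0.79% higher. At an unadjusted p under 0.05, 2 of the 10, *Fnip2* and *Flcn*, were lower by the quasi-likelihood test, where 2.86% of all genes were lower and 5.77% higher, 8.63% in either direction. At that level, edgeR's exact test gave 2 of the 10, where it called 2.75% of all genes lower, and DESeq2 gave 3, with *Fnip1* added, where it called 3.2% lower. The genotypes did not overlap for 3 of the 10 genes, *Fnip2*, *Flcn*, and *Rptor*, each lower in mutant mice, and overlapped for the other 7. Over all genes tested, 7.23% were lower and 8.3% higher without overlap. The 10 genes act in one pathway and come from the same 6 mice, so they are not 10 independent observations.

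**Figure D1:**
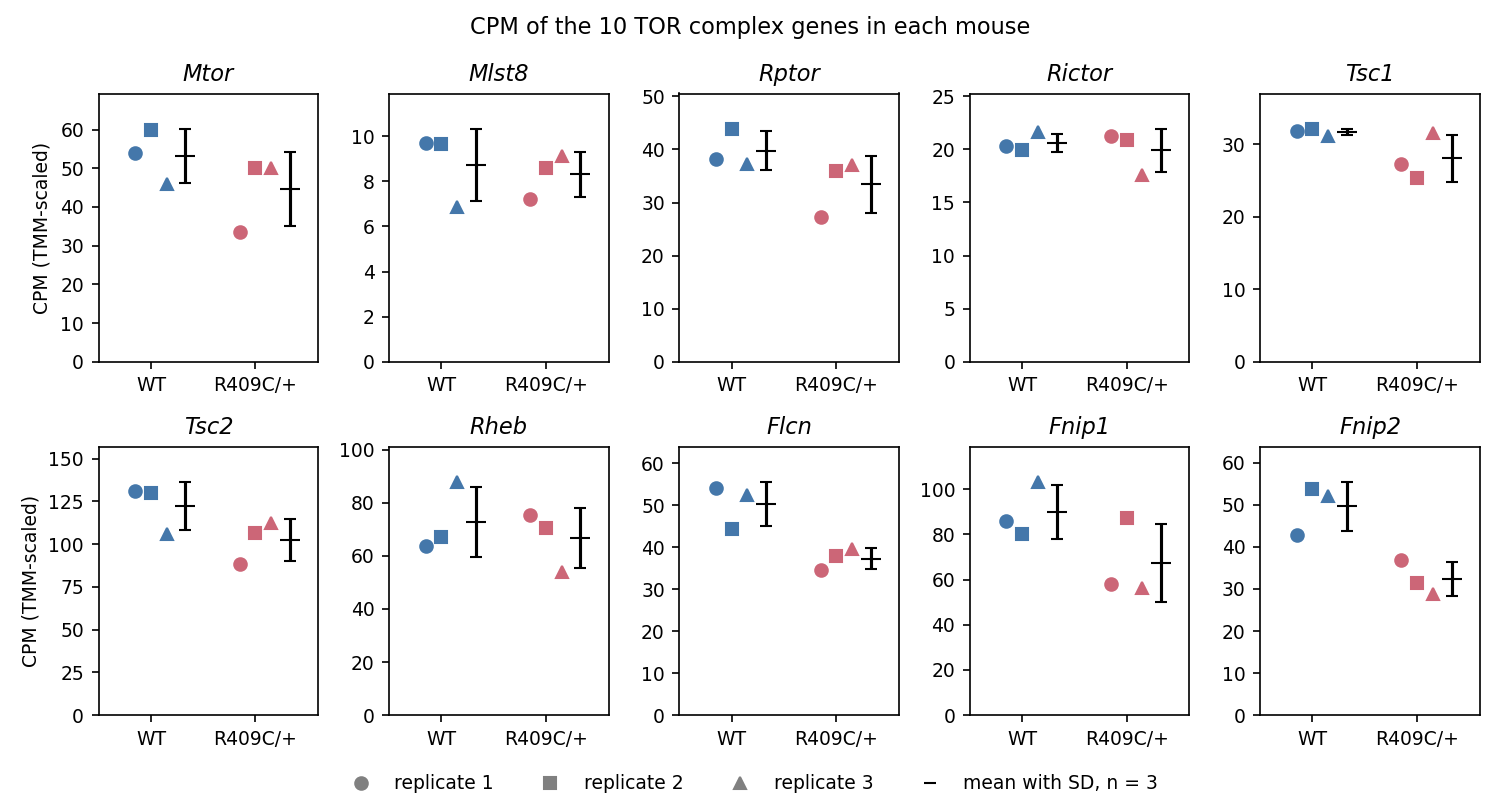
CPM of the 10 genes (vertical axes, TMM-scaled, each starting at 0) in the 3 WT mice (blue) and the 3 *Lztr1* R409C/+ mice (red), with the mean and SD of each group in black and 1 symbol per replicate number. No pairing of mice by number is stated. The groups are separate for *Fnip2*, *Flcn*, and, by 0.52% of the lowest WT value, *Rptor*.

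With TMM scaling, the mouse with the lowest value was *Lztr1* R409C/+ replicate 1 for 4 genes (*Mtor*, *Rptor*, *Tsc2*, and *Flcn*) and *Lztr1* R409C/+ replicate 3 for another 4 (*Fnip2*, *Fnip1*, *Rheb*, and *Rictor*). It was *Lztr1* R409C/+ replicate 2 for *Tsc1* and WT replicate 3 for *Mlst8*. With library size only, mutant replicate 1 was the lowest of the 6 mice for 9 of the 10 genes, and WT replicate 1 for *Rheb*. The highest value of each of the 10 genes was that of a WT mouse with TMM scaling, and that of a mutant mouse for *Mlst8* with library size only and for *Rictor* and *Tsc1* with upper quartile normalization.

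Among the folliculin complex genes, *Fnip2* (ENSMUSG00000061175.13, GRCm39 chromosome 3, 79363280 to 79475188, minus strand, 20 merged exons) encodes one of the alternative partners of folliculin. In replicate order, its levels were 42.9, 53.8 and 52.1 CPM for the WT and 36.8, 31.5 and 28.8 CPM for the mutant mice. Every mutant mouse was below every WT mouse, and the gap between the groups was 14.3% of the lowest WT value. WT mice averaged 49.6 ± 5.87 and mutant mice 32.3 ± 4.08 CPM (SD, n = 3 in each), a fitted fold of 0.652. The log2 fold change amounted to -0.62 (standard error 0.16, unadjusted p = 0.00244, adjusted p = 0.274 by edgeR). Of all genes tested, 3.75% had a lower log2 fold change. The groups remained apart under each of 5 scalings tried, and the log2 fold change lay between -0.80 and -0.54 over 17 alternative fits, with adjusted p-values of 0.0638 to 0.976 from edgeR or DESeq2.

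*Flcn* (ENSMUSG00000032633.13, chromosome 11, 59682196 to 59701138, minus strand) encodes folliculin, the GTPase-activating protein for RagC and RagD and the product of the gene mutated in Birt-Hogg-Dubé syndrome. Its levels were 54.3, 44.3 and 52.4 CPM in WT and 34.5, 38.0 and 39.5 CPM in the mutant mice. The 3 mutant values lay close together and below the lowest WT mouse, replicate 2. The mean was 50.3 ± 5.30 CPM (SD, n = 3) in WT and 37.3 ± 2.55 CPM (SD, n = 3) in mutant mice. On the log2 scale, the fitted difference was -0.43 (standard error 0.15, unadjusted p = 0.0143, adjusted p = 0.465 by edgeR), and 7.01% of all genes tested had a lower one. With library size only, in place of TMM, the groups of *Flcn* overlapped (unadjusted p = 0.0718 by edgeR). In edgeR, its unadjusted p-value was also above 0.05 in a fit without WT replicate 1 (unadjusted p = 0.0705) and in one without WT replicate 3 and *Lztr1* R409C/+ replicate 1 (unadjusted p = 0.0512). Over the annotated exons of *Flcn*, 354 bases are shared with the lncRNA *Gm16062* on the opposite strand, which had 5 to 21 counts per mouse.

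*Fnip1* (ENSMUSG00000035992.16, chromosome 11, 54328978 to 54409067, plus strand) encodes the other partner of folliculin. WT mice had 85.9, 80.2 and 103.3 CPM, and *Lztr1* R409C/+ mice had 58.2, 87.3 and 56.4 CPM. Mutant replicates 1 and 3 were below all WT mice, whereas mutant replicate 2 lay among them. WT mice averaged 89.8 ± 12.0 and mutant mice 67.3 ± 17.3 CPM (SD, n = 3 in each), and the log2 fold change came to -0.42 (standard error 0.19, unadjusted p = 0.0533, adjusted p = 0.587 by edgeR). This value moved by more than 1.5 times with the mice included. It was -0.65 without *Lztr1* R409C/+ replicate 2 (unadjusted p = 0.00559 by edgeR) and -0.21 without WT replicate 3 and *Lztr1* R409C/+ replicate 1 together (unadjusted p = 0.342 by edgeR).

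The sequence upstream of *Fnip1* is shown because it holds a palindromic E-box, CACGTG, the core of the motif that TFEB and TFE3 bind. The promoters of all 10 genes were found in the RefSeq table (GRCm38.p6; 250 bases before to 50 after the start site), and each matched GRCm39 at 1 position. CACGTG, which reads the same on both strands, was found in 2 of the 10, *Rheb* at position -96 and *Fnip1* at position -75 from the RefSeq start site, in 7.15% of all 32851 promoters of the table, and in 9.53% of the 14914 promoters of genes tested here. The longer form TCACGTGA, which contains CACGTG, was in 0 of the 10, in 0.974% of all promoters, and in 1.64% of those of tested genes. A match describes these letters in this window and does not show binding. The window below ends where the annotated *Fnip1* gene begins, at chr11:54328755-54328977 of GRCm39, plus strand, with the E-box in capitals.
Fnip1 upstream: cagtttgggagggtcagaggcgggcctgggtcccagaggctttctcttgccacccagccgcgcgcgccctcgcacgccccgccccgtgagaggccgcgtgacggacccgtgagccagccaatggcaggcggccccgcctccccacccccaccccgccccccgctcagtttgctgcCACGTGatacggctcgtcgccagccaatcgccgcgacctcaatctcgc
The *Rheb* match lies within an annotated exon of *Rheb*. No match to CACGTG was found in the windows of *Flcn* or *Fnip2*, which says only that these letters are not there. The RefSeq start sites of *Tsc2*, *Flcn*, *Rheb*, *Fnip2*, and *Tsc1* lie 591, 273, 263, 202, and 184 bases inside the annotated genes. The windows of *Tsc2*, *Flcn*, and *Rheb* thus lie wholly within these genes, and those of *Fnip2* and *Tsc1* mostly. Sequence upstream of the annotated start was not searched for the former and only in part for the latter.

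The kinase gene *Mtor* (ENSMUSG00000028991.16, chromosome 4, 148533015 to 148642141, plus strand, 58 merged exons) was measured at 54.0, 59.9 and 45.8 in WT and 33.5, 50.2 and 50.1 CPM in the mutant mice. Mutant replicate 1 was below the other 5 mice, and mutant replicates 2 and 3 lay between WT replicates 3 and 1. The means were 53.2 ± 7.05 and 44.6 ± 9.58 CPM (SD, n = 3 in each group), and the log2 fold change came to -0.25 (standard error 0.19, adjusted p = 0.748 by edgeR). Without *Lztr1* R409C/+ replicate 1, the log2 fold change of *Mtor* was -0.09, and without WT replicate 2 it was -0.16. *Mlst8* (ENSMUSG00000024142.16, chromosome 17, 24692524 to 24698057, minus strand) encodes the WD40 subunit that both complexes share. Its levels were 9.67, 9.63 and 6.86 CPM in WT and 7.20, 8.59 and 9.13 CPM in the mutant mice. WT replicate 3 was the lowest of the 6, and all mutant mice lay between it and the other 2 WT mice. The log2 fold change amounted to -0.07 (standard error 0.20, adjusted p = 0.953 by edgeR), and it was between 0.0071 and 0.0171 in the 3 of 17 alternatives in which it crossed 0, but -0.22 without WT replicate 3. Of the merged exons of *Mlst8*, 23.7% are shared with *Bricd5* on the opposite strand, to which 0 counts were assigned in each mouse. Whether strand was used in counting is not given in the sources used here, so reads of such partners cannot be told apart.

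For the subunits that set the complexes apart, every mutant mouse was below every WT mouse by a narrow margin for *Rptor* and not for *Rictor*. *Rptor* (ENSMUSG00000025583.17, chromosome 11, 119493731 to 119790402, plus strand) encodes the TORC1 subunit that recruits substrates. CPM values were 38.1, 43.9 and 37.3 in WT and 27.3, 36.0 and 37.1 CPM in the mutant mice. Mutant replicate 3 was just under WT replicate 3, and with library size only or upper quartile normalization the groups overlapped. The means were 39.8 ± 3.64 and 33.4 ± 5.36 CPM (SD, n = 3 in each group), and the log2 fold change came to -0.25 (standard error 0.17, unadjusted p = 0.158, adjusted p = 0.715 by edgeR). Without *Lztr1* R409C/+ replicate 1, it was -0.13. *Rictor* (ENSMUSG00000050310.10, chromosome 15, 6737860 to 6829882, plus strand) encodes the scaffold of TORC2. Its levels were 20.3, 20.0 and 21.6 CPM in WT and 21.3, 20.9 and 17.6 CPM in the mutant mice. Apart from mutant replicate 3, the mice differed by little. Fitted over all 6 mice, the log2 fold change amounted to -0.05 (standard error 0.16, adjusted p = 0.955 by edgeR), and it was 0.03 without *Lztr1* R409C/+ replicate 3 and 0.04 after a correction for gene length. It was -0.11 without mutant replicate 1 and -0.23 with library size only.

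The genes of the TSC inhibitor had lower means in mutant mice, with overlap. *Tsc1* (ENSMUSG00000026812.17, chromosome 2, 28531061 to 28581179, plus strand) encodes hamartin, which stabilizes TSC2. CPM values were 31.8, 32.0 and 31.1 in WT and 27.3, 25.3 and 31.5 CPM in the mutant mice. The WT mice were nearly equal, mutant replicates 1 and 2 were below them, and mutant replicate 3 lay within the WT range. The log2 fold change amounted to -0.18 (standard error 0.15, adjusted p = 0.789 by edgeR). It was -0.11 without mutant replicate 2, -0.27 without mutant replicate 3, -0.10 after the gene length correction, and -0.32 with library size only. *Tsc2* (ENSMUSG00000002496.11, chromosome 17, 24814783 to 24852192, minus strand) encodes tuberin, the GTPase-activating protein that acts on RHEB. Its values were 131.2, 129.9 and 105.9 CPM in WT and 88.6, 106.6 and 112.4 CPM in the mutant mice. WT replicate 3 was lower than the other WT mice and lay within the mutant range. The means were 122.3 ± 14.2 and 102.5 ± 12.4 CPM (SD, n = 3 in each group), and the log2 fold change came to -0.25 (standard error 0.16, unadjusted p = 0.146, adjusted p = 0.707 by edgeR). Without mutant replicate 1, it was -0.17. Exons of *Tsc2* share 700 bases with *Pkd1* and 546 bases with *Nthl1*, both on the opposite strand, and *Pkd1* had 2017 to 6510 counts per mouse.

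*Rheb* (ENSMUSG00000028945.10, chromosome 5, 25007821 to 25047622, minus strand) encodes the GTPase that activates TORC1. CPM values were 63.6, 67.2 and 87.9 in WT and 75.3, 70.6 and 53.9 CPM in the mutant mice. WT replicate 3 was the highest and mutant replicate 3 the lowest of the 6, and mutant replicates 1 and 2 lay above WT replicates 1 and 2. The means were 72.9 ± 13.1 and 66.6 ± 11.2 CPM (SD, n = 3 in each group), and the log2 fold change came to -0.13 (standard error 0.18, adjusted p = 0.884 by edgeR). Without WT replicate 3 the log2 fold change was 0.02, and without *Lztr1* R409C/+ replicate 3 it was 0.0009. It was -0.24 without mutant replicate 1 and -0.35 with library size only.

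**Figure D2:**
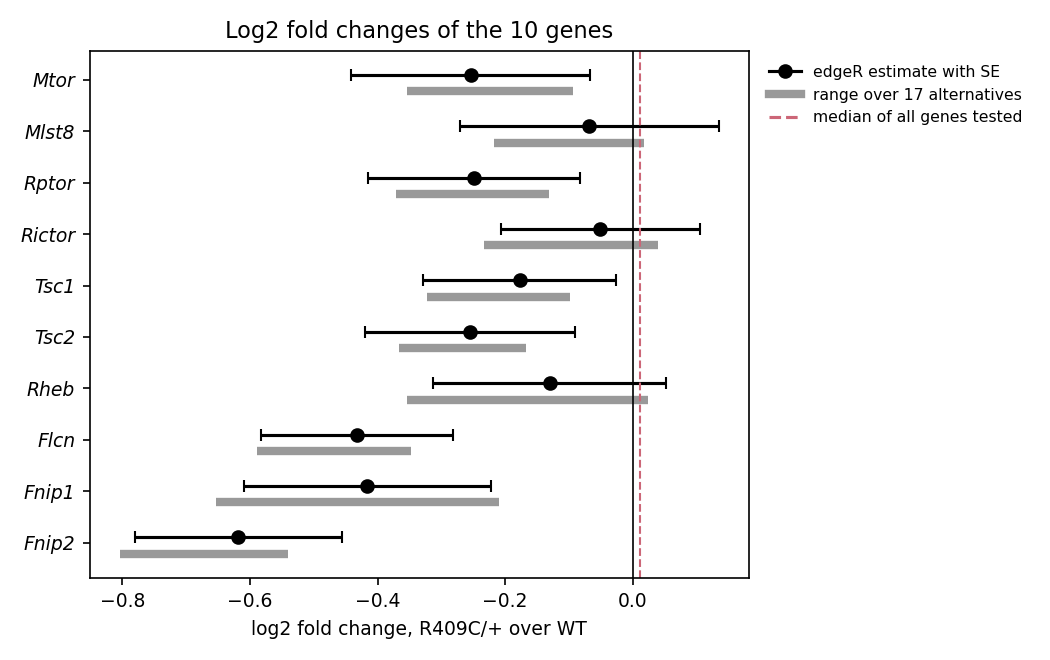
Log2 fold change of *Lztr1* R409C/+ over WT for each of the 10 genes (points, edgeR estimate with its standard error), with the range over 17 alternative fits as a grey bar and the median of all genes tested as a dashed line. The ranges of *Mlst8*, *Rictor*, and *Rheb* cross 0, and those of the other 7 genes lie below it.

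Levels were compared between genes only as CPM per kb of merged exon. In WT mice, the order from the highest was *Tsc2* with 11.8 ± 1.37, *Rheb* with 9.16 ± 1.65, and *Fnip1* with 9.12 ± 1.22 CPM per kb (SD, n = 3). The ranges of these 3 inhibitor, GTPase, and folliculin-partner genes overlapped from each to the next. *Flcn* followed with 6.67 ± 0.702, *Fnip2* with 5.13 ± 0.606, and *Mtor* with 5.07 ± 0.672 CPM per kb (SD, n = 3). The WT ranges of *Fnip2* and *Mtor* overlapped, whereas those of *Fnip1* and *Flcn*, and of *Flcn* and *Fnip2*, did not. The lowest 4 were *Rptor* with 2.95 ± 0.270, *Tsc1* with 2.19 ± 0.0324, *Mlst8* with 1.96 ± 0.362, and *Rictor* with 1.21 ± 0.0502 CPM per kb (SD, n = 3), and only *Tsc1* and *Mlst8* overlapped among these neighbours. In *Lztr1* R409C/+ mice the order was the same except that *Mtor*, at 4.25 ± 0.913, stood above *Fnip2*, at 3.34 ± 0.422 CPM per kb (SD, n = 3). With the length of the longest transcript instead, *Rheb* ranked first in WT and *Tsc2* came after it, *Rictor* ranked 9 and *Mlst8* ranked 10. On that scale the WT means of *Mtor* and *Rptor* were 6.14 and 6.03 CPM per kb with overlapping ranges, and in the mutant mice *Fnip2*, at 4.41 CPM per kb, ranked 7, below *Mtor* and *Rptor*.

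Ratios of counts within a mouse do not depend on the scaling between mice, and 5 pairs of partners or opponents were compared. The ratio of *Fnip2* to *Fnip1* was 0.50, 0.672, and 0.504 in WT and 0.632, 0.360, and 0.510 in mutant mice. The highest value was WT replicate 2 and the lowest was mutant replicate 2. *Fnip2* took 33.3% (95% Wilson interval, 32.3% to 34.3%), 40.2% (39.1% to 41.2%), and 33.5% (32.8% to 34.3%) of the counts of both genes in WT mice. In *Lztr1* R409C/+ mice the share was 38.7% (37.4% to 40.0%), 26.5% (25.6% to 27.4%), and 33.8% (32.6% to 34.96%). These intervals cover counting error only. The log2 ratios in *Lztr1* R409C/+ minus WT mice differed by -0.18 for *Fnip2*/*Fnip1*, 0.07 for *Tsc1*/*Tsc2*, -0.20 for *Rptor*/*Rictor*, 0.21 for *Mlst8*/*Mtor*, and 0.13 for *Rheb*/*Tsc2*. These values moved with single mice. With 1 mouse left out in turn, they ranged from -0.367 to 0.038 for *Fnip2*/*Fnip1* (0.038 without mutant replicate 2), from -0.014 (without mutant replicate 1) to 0.176 for *Tsc1*/*Tsc2*, and from -0.072 (without mutant replicate 1) to 0.369 for *Rheb*/*Tsc2*, which was also below 0, at -0.02, without WT replicate 1. *Rptor*/*Rictor* ranged from -0.373 to -0.012, the latter without mutant replicate 1, and *Mlst8*/*Mtor* from 0.117 to 0.281. The groups overlapped for all 5 pairs. Two-sided exact permutation tests gave p = 0.6, 0.7, 0.4, 0.2, and 0.8 in that order (0.8 for each after Benjamini-Hochberg adjustment over the 5), where 3 mice against 3 allow no p below 0.1.

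**Figure D3:**
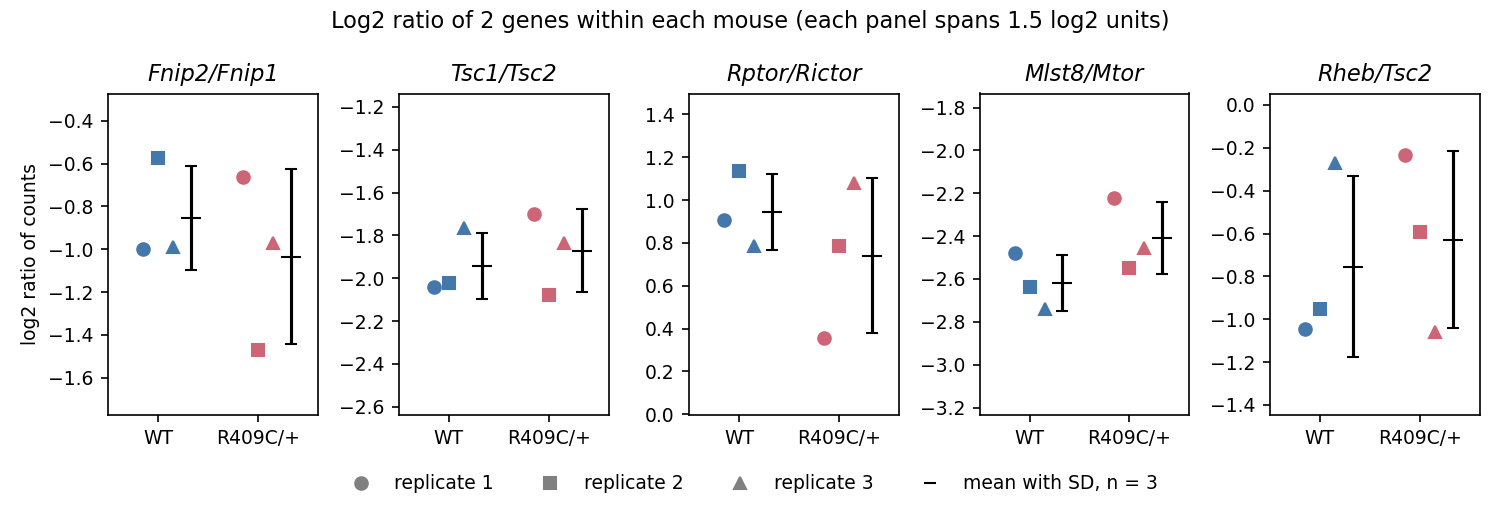
Log2 ratio of counts of 5 pairs of genes within each mouse (vertical axes, each spanning 1.5 log2 units and not starting at 0), WT in blue and *Lztr1* R409C/+ in red, with the mean and SD of each group (n = 3) in black. The groups overlap in every panel, and the widest spread within a genotype is that of *Rheb*/*Tsc2*, with an SD of 0.424 in WT and 0.414 in mutant mice.

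Likeness to *Mtor* was measured as the root mean square difference of log2 CPM over the 6 mice, after subtraction of each gene's mean. The 3 tested genes nearest to it were *Ank2* (0.030) and *Ank3* (0.033), which encode ankyrins, and *Ptprm* (0.031), which encodes a receptor tyrosine phosphatase. *Ank2* had 119.6, 127.1 and 100.8 CPM in WT and 76.1, 112.8 and 110.6 CPM in the mutant mice, with the same high and low mice as *Mtor*. Of the other 9 genes, *Rptor* was nearest, at rank 33 of the tested genes (0.082), followed by *Tsc2* at rank 128 (0.106) and *Mlst8* at rank 683 (0.162). *Fnip2* was at rank 7831 (0.372) and *Rheb*, the farthest, at rank 8885 (0.402). *Mtor*, *Rptor*, and *Tsc2* thus had similar profiles over the 6 mice, and *Rheb* and *Fnip2* did not share theirs.

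The rest of the pathway was described with a list of 65 genes, all of which were tested. Of these, 27 had a log2 fold change above 0 and 38 below 0, with a median of -0.06, and 0 passed the false discovery rate of 0.05 by the quasi-likelihood or exact test of edgeR or by DESeq2, which called 0.0349%, 0.72%, and 0.79% of all genes higher and 0.00581%, 0.0755%, and 0.0813% lower. At an unadjusted p under 0.05 by the quasi-likelihood test, 3 were higher and 6 were lower, against 5.77% and 2.86% of all genes tested. Without overlap between the genotypes, 13 were lower and 4 were higher, against 7.23% and 8.3% of all genes. Scaling by library size only shifted the median of all genes tested to -0.14, and 15 of the 65 were then above 0.

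Among the other complex subunits and assembly factors, 3 of 8 genes were above 0. *Prr5l*, a TORC2-associated protein, was at 0.681, 0.621 and 0.570 CPM in WT and 1.23, 1.22 and 1.67 CPM in the mutant mice, without overlap at a low level. edgeR's log2 fold change was 1.14 (standard error 0.36, unadjusted p = 0.00866, adjusted p = 0.407 by edgeR). *Mapkap1*, which encodes the TORC2 subunit SIN1, had a log2 fold change of -0.39 (unadjusted p = 0.0477 by edgeR). The TSC subunit gene *Tbc1d7* and the *Rheb* homologue *Rhebl1* had log2 fold changes of -0.03 and -0.25.

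Upstream of TORC1, 5 of the 10 genes of the Rag GTPases and the Ragulator, which anchors them to the lysosome, were above 0 and 5 below. *Rragb*, a Rag GTPase, was at 2.44, 2.77 and 3.34 CPM in WT and 1.57, 2.06 and 1.90 CPM in the mutant mice (log2 fold change -0.63, standard error 0.27, unadjusted p = 0.0396, adjusted p = 0.557 by edgeR). All mutant mice were below all WT mice for *Rragb*. *Lamtor5*, a Ragulator subunit, had a log2 fold change of 0.50 (unadjusted p = 0.0443 by edgeR), with overlap. Of 7 genes of GATOR1, which inhibits the Rags, and its anchor KICSTOR, 3 were above 0, and *Nprl2* had -0.49 (unadjusted p = 0.0324 by edgeR) and *Depdc5* 0.13. Of 5 genes of GATOR2, which opposes GATOR1, 1 was above 0, with 0.22 for *Sec13* and -0.21 for *Wdr59*. Of 9 genes of nutrient sensors and stress inhibitors, 5 were above 0, and the sestrin genes *Sesn1* and *Sesn3* had -0.35 (unadjusted p = 0.0457 by edgeR) and -0.37 (unadjusted p = 0.0726 by edgeR), whereas *Sesn2*, named after its values were seen, had 0.26 (unadjusted p = 0.360 by edgeR). Of 7 genes of AMPK, the energy sensor that restrains TORC1, and its upstream kinase LKB1 (*Stk11*), 3 were above 0, *Stk11* among them with 0.04, and the catalytic subunit genes *Prkaa2* and *Prkaa1* had -0.33 and -0.19.

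Among the substrates, 4 of 12 genes for TORC1 and 3 of 5 for TORC2 were above 0, with medians of -0.22 and 0.07. *Eif4ebp1*, which encodes the translation repressor 4E-BP1, was at 18.7, 16.4 and 13.0 CPM in WT and 19.3, 22.1 and 29.2 CPM in the mutant mice. The groups did not overlap, with mutant replicate 1 just above WT replicate 1. The log2 fold change amounted to 0.55 (standard error 0.20, unadjusted p = 0.0167, adjusted p = 0.475 by edgeR). *Atg13*, an autophagy initiator, had 47.4, 48.2 and 45.4 CPM in WT and 32.8, 41.9 and 35.7 CPM in the mutant mice, also without overlap and in the opposite direction (log2 fold change -0.35, unadjusted p = 0.0377 by edgeR). Of the 12 TORC1 substrate genes, 5 were lower and 1 was higher without overlap, against 7.23% and 8.3% of all genes tested. At an unadjusted p under 0.05 by the quasi-likelihood test, 2 of the 12 were lower and 1 was higher, against 2.86% and 5.77%. For TORC2, *Akt1* was at 125.9, 127.3 and 114.5 CPM in WT and 130.0, 151.3 and 181.1 CPM in the mutant mice (log2 fold change 0.33, unadjusted p = 0.0689, adjusted p = 0.608 by edgeR), and *Sgk1* had a log2 fold change of 0.25.

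Transcripts that respond to TORC1 through transcription factors were read from 46 tested genes. Of these, 21 were above 0 and 25 below 0, with a median of -0.05, and 0 passed the false discovery rate by the quasi-likelihood or exact test of edgeR or by DESeq2, against the same shares of all genes. At an unadjusted p under 0.05 by the quasi-likelihood test, 0 were higher and 2 were lower, against 5.77% and 2.86% of all genes tested. Of 20 lysosome and autophagy genes that TFEB and TFE3 target, 8 were above 0 and 12 below. The autophagy genes *Gabarapl1* (0.12), *Map1lc3b* (0.08), and *Wipi1* (0.06) were above 0. *Sqstm1* (-0.18) and *Uvrag* (-0.15), also of autophagy, were below 0, *Uvrag* without overlap. The prosaposin gene *Psap* was at 1054, 1045 and 1584 CPM in WT and 626.8, 910.9 and 949.4 CPM in the mutant mice (log2 fold change -0.57, standard error 0.23, unadjusted p = 0.0275, adjusted p = 0.527 by edgeR). WT replicate 3 was the highest mouse for *Psap*, and the groups did not overlap. *Atp6v1h*, a subunit of the proton pump of the lysosome, had -0.33. Of 13 ATF4 targets, which serve amino acid supply and stress responses, 8 were above 0, with 0.36 for both *Atf5* and *Aldh18a1*. Of 13 SREBP targets, which serve sterol and fatty acid synthesis, 5 were above 0, and *Acaca*, which encodes acetyl-CoA carboxylase, was at 10.1, 11.7 and 10.5 CPM in WT and 6.51, 7.43 and 9.02 CPM in the mutant mice (log2 fold change -0.49, standard error 0.19, unadjusted p = 0.0225, adjusted p = 0.505 by edgeR). The sterol synthesis gene *Hmgcs1* had -0.32. Without overlap between the genotypes, 3 SREBP targets were higher and 1 was lower. Over all 46 genes, 3 were higher and 4 lower without overlap, against 8.3% and 7.23% of all genes tested.

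**Figure D4:**
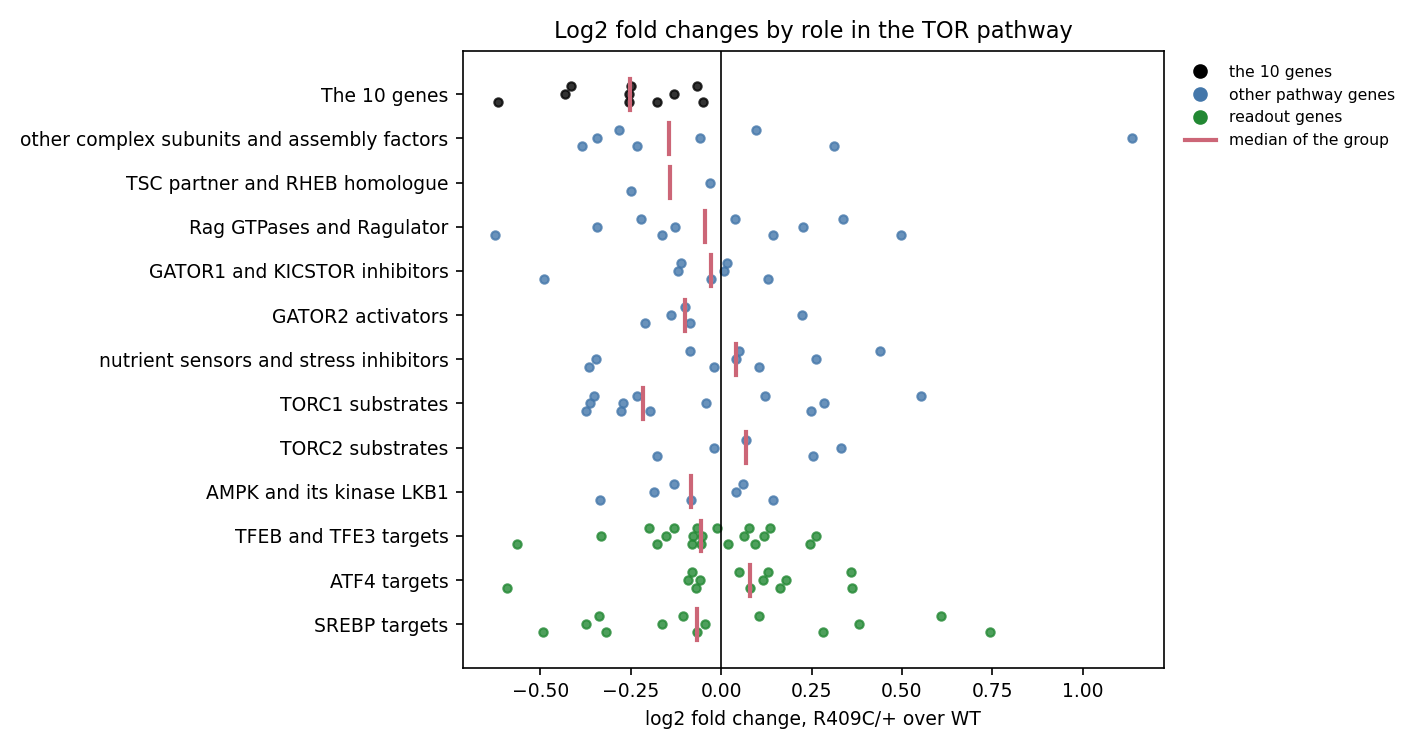
Log2 fold change of *Lztr1* R409C/+ over WT (horizontal axis) for the 10 genes (black), the other 65 pathway genes by role (blue), and the 46 tested genes that report on TORC1 through transcription factors (green), 1 point per gene, with the median of each group as a red bar. The 10 genes lie below 0 with a median of -0.25, and each of the other groups with more than 2 genes has members on both sides of 0.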

How the data were processed

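mRNA-Seq was performed by the authors on PBS-perfused LVs of 3 *Lztr1* R409C/+ and 3 WT mice, 1 library per mouse (NEBNext Ultra II RNA kit). Reads were trimmed with Trim Galore and aligned to GRCm39 with HISAT2, rRNA was excluded, and StringTie was used. Strand use and the annotation release are not given in the sources used here. The authors deposited whole-number counts per gene, without normalization, which were used here. They also deposited log2 fold changes, average log2 CPM, and p-values of their own edgeR comparison, of which the gene names alone were used. Groups come from the sample labels, which call the tissue heart and the mice WT or Mut. The R409C allele of the mutant mice is not in the labels and comes from the methods and results of the study.

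Tests used edgeR 4.0.16 under R 4.3.3 (filterByExpr, TMM, robust quasi-likelihood test, two-sided, Benjamini-Hochberg adjustment over 17212 genes). Positions and exon lengths are from GENCODE on GRCm39, which held 56236 of the 56923 genes. Ratios were compared with two-sided exact permutation tests. Intervals cover counting error only.

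The genes named by rule are the 10 genes, the 2 of each pathway or readout group with the smallest unadjusted p, overlapping genes, the 3 nearest *Mtor*, and *Lztr1*. Named outside this rule were *Sesn2*, *Stk11*, *Gabarapl1*, *Map1lc3b*, *Wipi1*, *Sqstm1*, *Uvrag*, and single markers of cell types. The members and lists were chosen with earlier results of these data known. Alternatives were other normalizations, filters, and tests (DESeq2 1.42.0), removal of mitochondrially encoded genes, a replicate block, a gene length correction, a false discovery rate of 0.1, the longest transcript length, and omission of mice. The edgeR quasi-likelihood fit was tested on simulated counts, in which the changes put in were larger than those of the 10 genes.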

Additional observations from a re-analysis of the deposited data

How the results depend on the processing

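The lower mean of 7 of the 10 genes held in all 17 alternatives, and none of the 10 passed a false discovery rate of 0.05 in any, with the lowest adjusted p that of *Fnip2* by DESeq2 (0.0638). The log2 fold change of *Rictor* was 0.0403 after the gene length correction and 0.0317 without *Lztr1* R409C/+ replicate 3. That of *Mlst8* was 0.0122 and 0.0071 without WT replicates 1 and 2 and 0.0171 without *Lztr1* R409C/+ replicate 1, and that of *Rheb* was 0.0239 without WT replicate 3 and 0.0009 without *Lztr1* R409C/+ replicate 3. When single mice were left out, the 3 ranges were -0.1102 to 0.0317, -0.2171 to 0.0171, and -0.2362 to 0.0239. Accordingly, 1 gene of the 10 was above 0 after the length correction and 0 to 2 when single mice were left out. The 2 genes with an unadjusted p under 0.05 became 1 with library size only, 1 without WT replicate 3 and *Lztr1* R409C/+ replicate 1 together, and 1 to 3 when single mice were left out.

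Over all genes, 6 higher and 1 lower genes passed. These became 15 and 6 with library size only, 124 and 13 with edgeR's exact test, and 136 and 14 with DESeq2. Higher genes numbered 19 without a filter, 3 after the length correction, 15 at a false discovery rate of 0.1, 0 without those 2 mice, and 1 to 3 without single mice. Lower genes numbered 0 with at least 10 counts in every mouse and 1 to 2 without single mice.

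Of the 65 pathway genes, the number higher at an unadjusted p under 0.05 was 0 with library size only, 5 without those 2 mice, and 1 to 3 without single mice, and the number lower was 0 with library size only, 1 with upper quartile normalization, and 1 to 7 without single mice. With library size only, 15 of the 65 and 12 of the 46 readout genes were above 0. Of the readout genes, the number higher at an unadjusted p under 0.05 was 1 with upper quartile normalization and 0 to 1 without single mice, and the number lower was 1 with library size only, 1 without those 2 mice, and 1 to 4 without single mice. The *Mlst8*/*Mtor* difference was 0.057 without those 2 mice, against 0.117 to 0.281 without single mice. Without single mice, the differences ranged from -0.367 to 0.038 for *Fnip2*/*Fnip1*, -0.014 to 0.176 for *Tsc1*/*Tsc2*, -0.072 to 0.369 for *Rheb*/*Tsc2*, and -0.373 to -0.012 for *Rptor*/*Rictor*, so that 3 of the 5 turned sign. With the longest transcript length, *Rheb*, *Tsc2*, *Rictor*, and *Mlst8* ranked 1, 2, 9, and 10 in WT. The cause of these shifts was not tested.

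The replicate numbers share no stated origin, and the mice were treated as unpaired. Deviations of same-numbered mice correlated at -0.001, 0.022, and -0.057, and those of differently numbered mice at -0.05 to 0.048. Values this near 0 show no likeness by number, but cannot decide whether same-numbered mice were related or handled together. With a replicate block, 0 genes were higher over all genes, 1 pathway gene was lower at an unadjusted p under 0.05, and *Fnip2* had a log2 fold change of -0.62 (adjusted p = 0.540 by edgeR). The common biological coefficient of variation was 26.1%, and a p-value that misses the threshold does not show that levels were equal.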

Other observations

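*Angptl7*, which lies on the opposite strand within *Mtor* and shares no exon bases with it, was counted 45, 41, and 53 times among WT and 40, 41, and 148 times among mutant replicates. Whether reads of *Angptl7* were counted for *Mtor* was not tested. *Nthl1*, which shares exon bases with *Tsc2*, was counted 81, 17, and 116 times among WT and 91, 81, and 85 times among mutant replicates, and *Rptoros*, which shares 84 exon bases with *Rptor*, had 15 counts in WT replicate 3 and 0 in the other 5 mice. These genes were chosen after their values were seen.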
